A study of Mus musculus with 86 samples.

Results

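Hox genes encode homeodomain transcription factors that lie in 4 clusters, HoxA to HoxD. Here 32 of them are described across 86 single cells of the mouse kidney at 12.5 days post coitum. Every row of the deposited table of expressed genes was taken whose symbol is Hox followed by a cluster letter and a paralog number. This gave 32 of 12360 rows, with 10 genes of HoxA, 8 of HoxB, 7 of HoxC and 7 of HoxD. RefSeq's gene table lists 39 Hox genes, and the other 7 (Hoxa13, Hoxb8, Hoxb13, Hoxc12, Hoxc13, Hoxd1 and Hoxd13) were not analysed here. Per the file headers, the deposited table is limited to genes over an RPKM of 3 in 3 or more cells. RPKM is the reads of a gene divided by its length and by the mapped reads of the cell.

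All cells came from wild-type metanephroi of a mixed background strain, at Theiler stage 20, with males and females pooled. Kidneys were dissociated with trypsin, cells were caught in a Fluidigm C1 instrument, the chambers were looked at under a microscope, and SMARTer cDNA was sequenced on a HiSeq2500. The stated long-term aim is an atlas of kidney gene expression, and the labels give no cell type. Cells of 1 pool are 1 sample and not replicates, so no difference was tested, and SD and ranges are over cells.

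The cells were split into 3 classes by the level of 2 genes, which are classes of these data and not groups of the study. Bud cells had an RPKM of at least 100 for Mal2, a gene of epithelial membranes, and there were 7. Of the other cells, 46 were Six2-detecting, with an RPKM of at least 1 for Six2, a transcription factor of nephron progenitors. The remaining class held 33 cells. The lowest Mal2 RPKM in the bud class was 1219, and the highest outside it was 3.41. The lowest Six2 RPKM in the Six2-detecting class was 1.50, and the highest in the remaining class was 0.527. The bud rule came first, and 3 of the 7 bud cells also detected Six2.

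The names of the classes were checked against marker lists without Mal2 and Six2, the genes of the class rule. Bud cells detected 9 to 12 of 12 ureteric bud markers, and other cells at most 6. Six2-detecting cells detected 6 to 12 of 12 nephron progenitor markers, bud cells 1 to 7 and remaining cells 1 to 11. Of 12 stroma markers the remaining cells detected 2 to 12, the Six2-detecting cells 2 to 10 and the bud cells 1 to 8. Foxd1, a stroma transcription factor, was detected in 25 of 33 remaining cells and also in 31 of 46 Six2-detecting cells. Medians of genes detected per cell were 6488 in bud, 6256 in Six2-detecting and 6087 in remaining cells. Relative depth was taken from the commonest ratio between the RPKM values of a cell and those of a reference cell. It had medians of 1.05, 1.01 and 0.978 in these classes and ranged from 0.152 to 3.07 over all cells. Read totals were not recovered, so no detection limit is given.

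Genes of a Hox cluster are used along the body in the order of their position, from low paralog numbers in the head and neck to high numbers at the tail. Genes with the same number in different clusters are paralogs that often act together. In the metanephros, paralogs 11 (Hoxa11, Hoxc11 and Hoxd11) act with Eya1 and Pax2 to switch on Six2 and Gdnf, the signal that draws out the ureteric bud. Paralogs 10 are needed in the kidney stroma, and a promoter of Hoxb7 is the common driver of transgenes in the ureteric bud.

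Promoter windows are shown for 3 genes on which the results turn: Hoxd8 and Hoxd10, which lie close together in HoxD and stood on opposite sides of the bud, and Hoxa11, a paralog 11 gene of kidney induction. The sequences are the 250 bases before the RefSeq start on GRCm38.p6, a later build than the mm9 of the deposited coordinates. Capitals mark the word CCAAT or its reverse complement, the only one of 4 searched words found in these windows.

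Hoxd10 promoter, chr2:74691641-74691890, plus strand: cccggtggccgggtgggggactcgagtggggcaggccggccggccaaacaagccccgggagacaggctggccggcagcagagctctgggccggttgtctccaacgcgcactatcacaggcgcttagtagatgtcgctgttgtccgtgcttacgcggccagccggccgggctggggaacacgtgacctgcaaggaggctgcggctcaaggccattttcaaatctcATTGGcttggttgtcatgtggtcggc
Hoxd8 promoter, chr2:74704365-74704614, plus strand: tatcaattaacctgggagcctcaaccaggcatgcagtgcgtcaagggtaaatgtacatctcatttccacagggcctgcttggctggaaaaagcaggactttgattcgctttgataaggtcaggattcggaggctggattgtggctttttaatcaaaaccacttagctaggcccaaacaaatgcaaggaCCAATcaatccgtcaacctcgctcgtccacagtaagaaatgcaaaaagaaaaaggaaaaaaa
Hoxa11 promoter, chr6:52245811-52246060, minus strand: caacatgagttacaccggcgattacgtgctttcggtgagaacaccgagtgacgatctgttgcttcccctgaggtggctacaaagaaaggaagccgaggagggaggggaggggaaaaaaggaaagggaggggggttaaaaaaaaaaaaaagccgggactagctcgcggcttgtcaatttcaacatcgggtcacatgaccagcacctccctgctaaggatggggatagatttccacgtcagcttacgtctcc

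The Hoxd10 window had a GC content of 65.6% and 20 CpG dinucleotides, with CCAAT at -26 from the start. The Hoxd8 window had a GC content of 44.4% and 6 CpG, with CCAAT at -62. The Hoxa11 window had a GC content of 52% and 13 CpG. The median over all promoters in the table was 52.4% GC and 6 CpG, and the median over the 20 windows of 18 Hox genes described here was 56.8% and 11. On both strands, CCAAT was found in 33.8% of 32851 promoter windows and in 14 of 24 Hox windows. The Pbx-Hox word TGATNNAT was in 7.68% and in 4 of 24, TATAAA in 12.4% and in 4, and GGGCGG in 32.7% and in 10. The 24 Hox windows include genes that were not analysed here. A match is a string of letters and was not tested as a binding site.

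Mean levels of many Hox genes differed between bud cells and the other cells. A ratio below is the log2 ratio of (class mean RPKM + 1), and it understates the difference of low genes. A gene was called higher or lower when this ratio was at least 1 in size. In Six2-detecting over bud cells, 18 of 32 Hox genes were higher, where 20.9% of all rows were, and 4 were lower (Hoxb6, Hoxb7, Hoxd4 and Hoxd8), where 10.3% of all rows were. The median Hox ratio was 1.20, and that of all rows was 0.19. In remaining over bud cells, 15 Hox genes were higher and 5 lower, those 4 and Hoxb3, against 22.0% and 12.3% of all rows. The median Hox ratio there was 0.83, and that of all rows 0.14. These comparisons share the 7 bud cells. Lower genes made up 12.5% and 15.6% of the Hox genes in them, near the shares of all rows. With the mean of log2 values in place of the log2 of means, 8 Hox genes were higher and 8 lower in remaining over bud cells, against 6.64% and 15.6% of all rows. In Six2-detecting over bud cells the lower genes were then again Hoxb6, Hoxb7, Hoxd4 and Hoxd8, where 11.2% of all rows were lower.

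Hoxa2, Hoxa6, Hoxc6 and Hoxc11 were listed at 0 in all 7 bud cells and have no ratio of their own. Without such rows, 15 of 28 Hox genes were higher and 4 lower in Six2-detecting over bud cells (18.7% and 10.9% of 11482 rows). In remaining over bud cells 11 were higher and 5 lower (19.8% and 12.9% of 11451 rows). The range of every Hox gene in bud cells overlapped its range in Six2-detecting cells and in remaining cells. Overlap was not counted over all rows, so it does not set Hox genes apart from other genes.

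No gene of HoxA or HoxC had a higher mean in bud cells. All 10 HoxA genes and all 7 HoxC genes had a ratio above 0 in Six2-detecting over bud cells, where 59.2% of all rows were. For Hoxa2, Hoxa6, Hoxc6 and Hoxc11, listed at 0 in all bud cells, no other direction was possible. Of the HoxA and HoxC genes, 8 and 5 had a ratio of at least 1, with Hoxa2, Hoxa6 and Hoxc6 among them. HoxB was split, with 4 genes above and 4 below 0. HoxD was split by position: Hoxd10, Hoxd11 and Hoxd12 were above 0, and Hoxd3, Hoxd4, Hoxd8 and Hoxd9 below. With the mean of log2 values the counts above and below 0 by cluster were the same. Fewer HoxA and HoxC genes then reached 1: Hoxa4 fell from 2.63 to 0.71 and Hoxc5 from 1.52 to 0.46. In remaining over bud cells HoxA and HoxC were again above 0 throughout, where 56.5% of all rows were. The genes at 0 in all bud cells could again only be above 0. In this comparison Hoxa11 turned from 0.22 to -0.13 with the mean of log2 values.

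**Figure D1:**
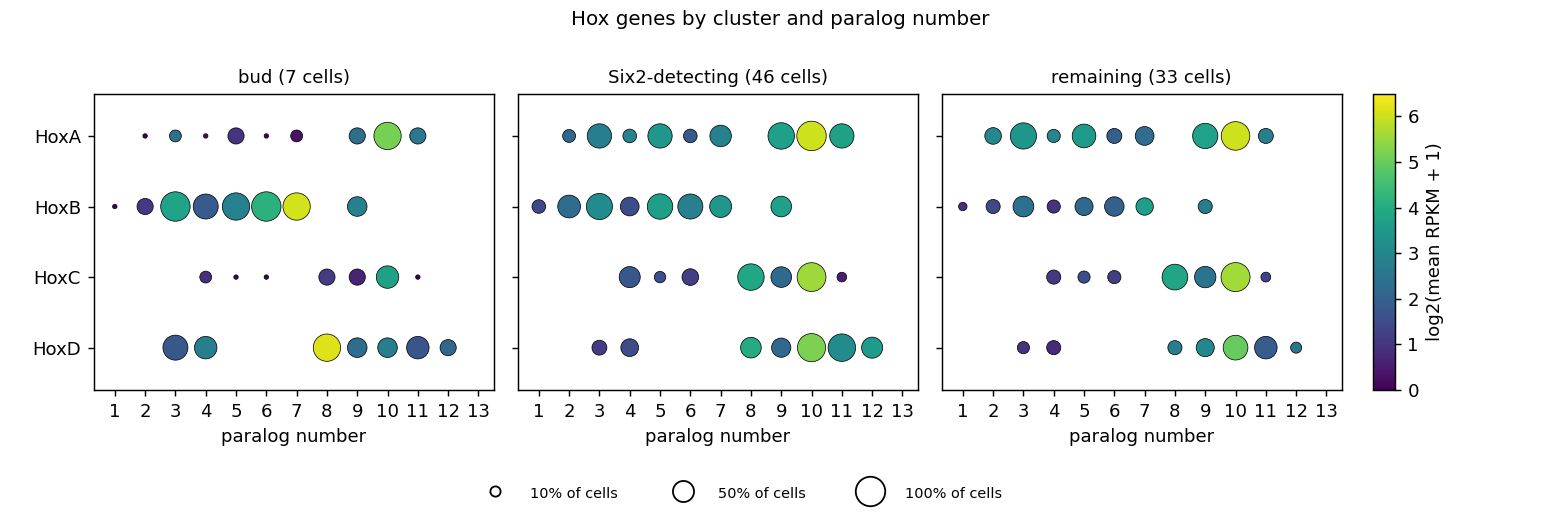
Mean level and detection of 31 Hox genes by cluster (rows) and paralog number (columns) in the 3 classes; colour is log2(mean RPKM + 1) and circle area is the share of cells with an RPKM of at least 1. Places without a circle are not shown. Large circles sit at HoxB 3 to 7, Hoxa10, Hoxd3 and Hoxd8 in the 7 bud cells. In the 46 Six2-detecting and 33 remaining cells they sit, among other places, at paralog 10 of HoxA, HoxC and HoxD.

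Hoxb7 and Hoxd8 were the highest Hox genes of the bud cells by mean RPKM, a level per length. Hoxb7 (gene 15415, chromosome 11, 96147960 to 96151477, mm9) had RPKM values of 146 in bud cell 3, 115 in cell 20, 73.3 in cell 74, 52.5 in cell 47, 43.8 in cell 57, 24.5 in cell 53 and 0.571 in cell 18. Its range was 0 to 57.7 with a median of 1.57 in Six2-detecting cells, and 0 to 84.2 with a median of 0 in remaining cells. All bud cells but cell 18 stood above the median of the Six2-detecting cells, and 2 Six2-detecting and 2 remaining cells reached the bud median. The means were 65.2 ± 51.0 (SD, 7 cells), 9.81 ± 15.8 (46 cells) and 11.2 ± 23.4 (33 cells), with ratios to bud of -2.61 and -2.44. Hoxb7 RNA was thus not confined to bud cells: 25 of 46 Six2-detecting and 11 of 33 remaining cells detected it.

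Hoxd8 (gene 15437, chromosome 2, 74543546 to 74545364), a gene of trunk patterning, had RPKM values of 148 in bud cell 3, 141 in cell 74, 59.8 in cell 20, 58.5 in cell 18, 42.9 in cell 47, 39.1 in cell 57 and 0 in cell 53. In Six2-detecting cells the range was 0 to 116 with a median of 0.805, and in remaining cells 0 to 89.6 with a median of 0. The bud cells were high with the exception of cell 53, and 5 Six2-detecting cells and 1 remaining cell reached the bud median. The means were 69.9 ± 54.7, 14.8 ± 27.1 and 5.73 ± 17.2, with ratios to bud of -2.17 and -3.40, the second -2.71 when Six2-detecting cells were taken at an RPKM of 10 or more and the others joined the remaining class. Bud cell 18, lowest in Hoxb7, had Hoxd8 near the bud median, and bud cell 53, without Hoxd8, had Hoxb7 at 24.5.

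Hoxb6, the neighbour of Hoxb7 (gene 15414, chromosome 11, 96160485 to 96162883), was the most even Hox gene of the bud class among those higher there. Its RPKM was 9.41 to 29.1 in the 7 bud cells with a median of 15.6, 0 to 25.6 in Six2-detecting cells with a median of 3.49, and 0 to 20.9 in remaining cells with a median of 0.408. All bud cells lay above both medians, and 12 Six2-detecting and 3 remaining cells reached the lowest bud cell. The ratios to bud were -1.35 and -2.18 (-3.24 over remaining cells with Foxd1), from means of 16.8 ± 6.31, 5.97 ± 6.41 and 2.93 ± 5.07.

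Hoxb3 was likewise detected in all 7 bud cells, at 1.04 to 28.4 with a median of 7.91. It was detected in 36 of 46 Six2-detecting cells (median 4.53, highest 35.7) and in 16 of 33 remaining cells (median 0.890, highest 42.1). The ranges overlapped, and the ratios to bud were -0.65 and -1.32, the second -0.72 without the 3 bud cells that detect Six2. Hoxd4 was detected in 4 of 7 bud cells, at 15.8 in cell 53, 15.0 in cell 74, 5.00 in cell 57 and 2.00 in cell 3, with ratios of -1.24 and -1.94. In the other classes its medians were 0.262 and 0 and its highest values 18.1 and 7.16. Hoxb4 (-0.32 and -0.88) and Hoxd3 (-0.64 and -0.80) leaned the same way by less than 1, and each was detected in 5 of 7 bud cells at 6.46 or less. The deposited span of Hoxd3 covers that of Hoxd4, and the use of strand in counting is not given in the sources used here, so reads of these genes may have been shared.

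**Figure D2:**
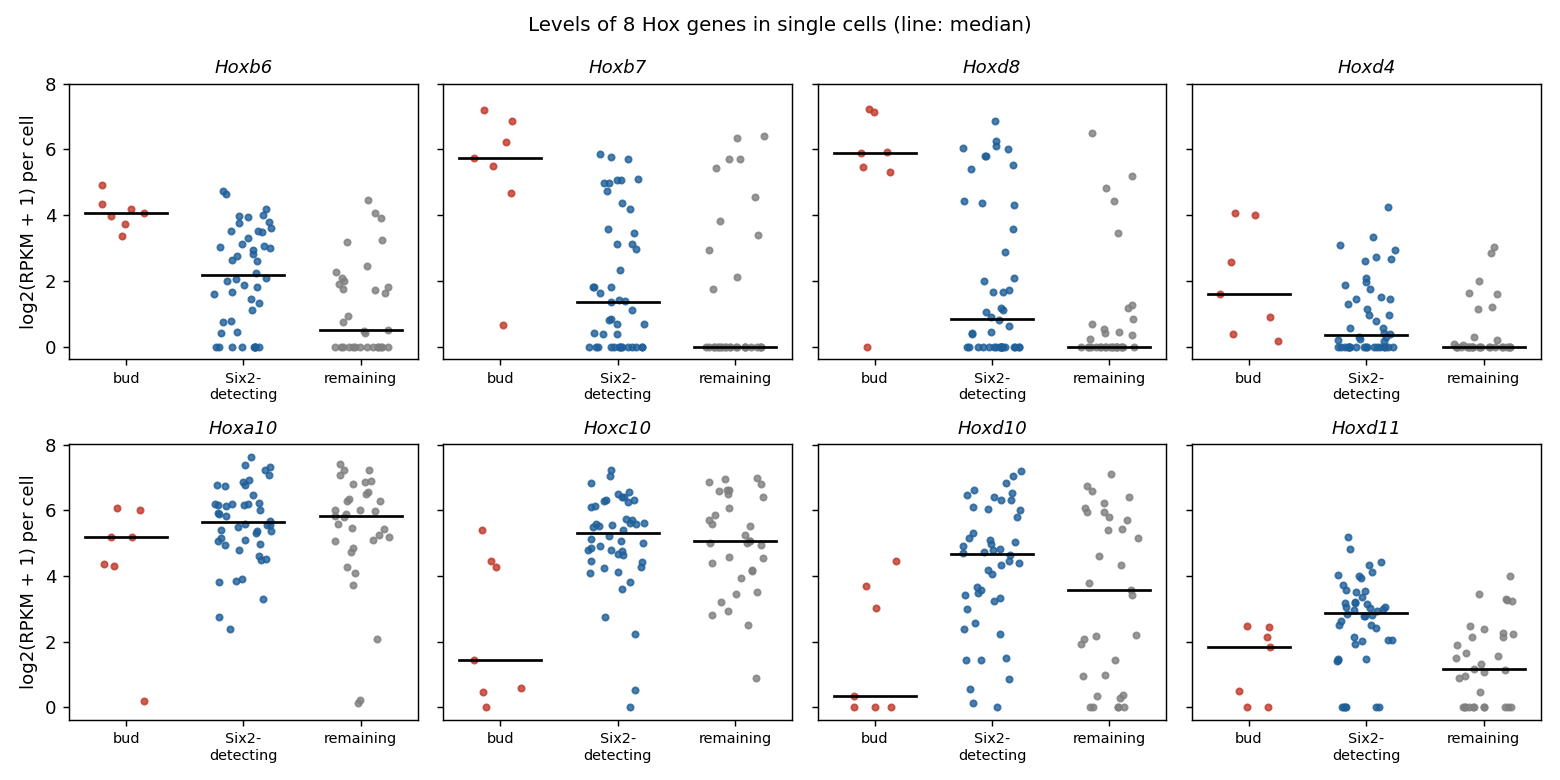
log2(RPKM + 1) of 8 Hox genes in each cell of the 7 bud, 46 Six2-detecting and 33 remaining cells; points are cells, spread sideways at random, and lines are medians. The upper row shows genes with a higher mean in bud cells (Hoxb6, Hoxb7, Hoxd8 and Hoxd4), the lower row genes with a lower mean there (Hoxa10, Hoxc10, Hoxd10 and Hoxd11), and in every panel the ranges overlap.

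The 3 paralogs 10 had the highest mean RPKM of all Hox genes in Six2-detecting cells and in remaining cells. Hoxa10 (gene 15395, chromosome 6, 52181196 to 52190853) was detected in all 46 Six2-detecting cells at 4.25 to 196 with a median of 48.5, and in 31 of 33 remaining cells with a range of 0.101 to 167 and a median of 55.3. In bud cells it ranged from 0.144 to 65.7 with a median of 35.4 and was detected in 6 of 7. Bud cell 74, at 0.144, lay below every Six2-detecting cell, and the other 6 bud cells lay inside the ranges of both other classes. The ratios to bud were 0.87 and 0.87, from means of 34.1 ± 24.1, 62.9 ± 45.9 and 63.1 ± 45.3. Hoxa10 was the highest Hox gene of a cell in 17 of 46 Six2-detecting, 14 of 33 remaining and 2 of 7 bud cells, and Hoxd8 was the highest in 3 of 7 bud cells.

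Hoxc10 and Hoxd10 differed more between the classes than Hoxa10. Hoxc10 (gene 209448, chromosome 15, 102797296 to 102802152) was at 40.9, 20.9 and 18.5 in bud cells 20, 53 and 57 and at 1.74 or less in the other 4. In Six2-detecting cells it ranged from 0 to 147 with a median of 39.0, and in remaining cells from 0.837 to 126 with a median of 32.7. Bud cell 20 alone reached these medians. The ratios to bud were 1.87 and 1.91, and without bud cell 20 they were 2.56 and 2.59.

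Hoxd10 (gene 15430, chromosome 2, 74530005 to 74533159) was at 20.8, 12.1 and 7.19 in bud cells 47, 18 and 57, the 3 bud cells that detected Six2, and at 0.265 or less in the other 4. In Six2-detecting cells it ranged from 0 to 145 with a median of 24.3, and in remaining cells from 0 to 137 with a median of 10.9. No bud cell reached the Six2-detecting median. The ratios to bud were 2.45 and 2.21, which became 3.12 and 2.88 without bud cell 47 and 5.12 and 4.87 without the bud cells that detect Six2.

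Each paralog 10 gene was detected in most cells outside the bud. Hoxc10 was detected in 44 and Hoxd10 in 42 of 46 Six2-detecting cells, and in 32 and 23 of 33 remaining cells. Whether these genes go together beyond such single shares was not tested. All 3 were detected in 41 of 46 Six2-detecting cells (89.1%, exact Clopper-Pearson 95% interval 76.4 to 96.4%), in 21 of 33 remaining cells (63.6%, 45.1 to 79.6%) and in 2 of 7 bud cells (28.6%, 3.67 to 71.0%). Every cell outside the bud class, 79 in all, detected at least 1 of them. These intervals cover counting error only.

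Of paralogs 11, the genes of kidney induction, Hoxd11 and Hoxa11 were found in most Six2-detecting cells, at lower mean levels than paralogs 10. Hoxd11 (gene 15431, chromosome 2, 74520450 to 74522195) was detected in 40 of 46 Six2-detecting cells, 19 of 33 remaining cells and 4 of 7 bud cells. Its RPKM ranged from 0 to 35.2 with a median of 6.36 in Six2-detecting cells, from 0 to 14.8 with a median of 1.26 in remaining cells, and from 0 to 4.57 with a median of 2.59 in bud cells. Of the Six2-detecting cells, 30 stood above the highest bud cell. The ratio was 1.45 over bud cells and 1.24 over remaining cells, and remaining over bud cells gave 0.21.

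Hoxa11 (gene 15396, chromosome 6, 52192105 to 52195766) was detected in 31 of 46 Six2-detecting cells (median 3.69, highest 75.1) and in 8 of 33 remaining cells (median 0, highest 108). In bud cells it was at 29.4 in cell 53, 4.85 in cell 18 and below 0.5 in the other 5. The ratio of Six2-detecting over bud cells was 1.15 and became 2.83 without bud cell 53, and over remaining cells it was 0.93. Hoxa11as, its antisense RNA, has a row that overlaps it over 686 bases. The antisense row was detected in 5 of 7 bud, 39 of 46 Six2-detecting and 16 of 33 remaining cells, with means of 24.2 ± 28.7, 25.6 ± 27.6 and 17.4 ± 32.4. Reads of the pair cannot be told apart where strand was not used. Hoxc11, the third paralog, was detected in 4 Six2-detecting and 3 remaining cells, with highest values of 12.2 and 27.2.

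No paralog 11 gene was detected in 1 of 46 Six2-detecting cells (2.17%, 0.0550 to 11.5%), 11 of 33 remaining cells (33.3%, 18.0 to 51.8%) and 3 of 7 bud cells (42.9%, 9.90 to 81.6%). Six2-detecting cells detected 2 of the 3 in 24 cells and all 3 in 3 cells.

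**Figure D3:**
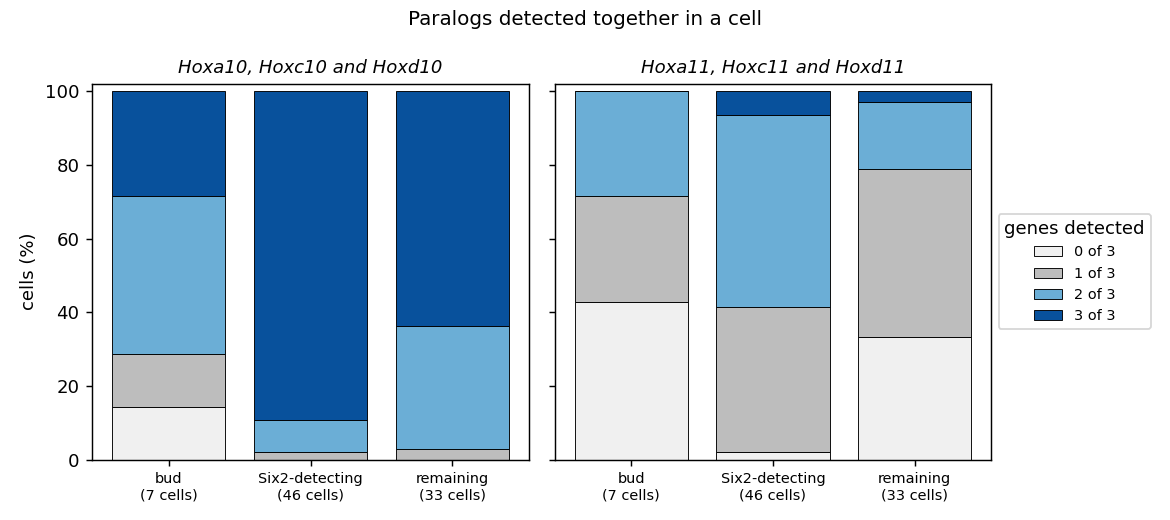
Share of cells in each class (percent, stacked to 100) that detected 0, 1, 2 or 3 of the paralogs 10 (left) or 11 (right) at an RPKM of at least 1. All 3 paralogs 10 were found in 89.1% of Six2-detecting, 63.6% of remaining and 28.6% of bud cells, and no paralog 11 in 2.17%, 33.3% and 42.9%.

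Hoxd12, a distal limb gene and the highest number measured, was detected in 23 of 46 Six2-detecting cells (median 1.07, highest 86.2) and in 4 of 33 remaining cells (median 0, highest 115). The lone bud cell above 3 was cell 53 at 20.7. The ratio of Six2-detecting over bud cells was 1.39 and became 2.88 without that cell, and over remaining cells it was 1.00. Among paralogs 9, which pattern the lower trunk, Hoxa9 was detected in 37 of 46 Six2-detecting and 24 of 33 remaining cells, with medians of 7.83 and 9.23. Bud cells 57 and 53 had Hoxa9 at 16.7 and 10.5 and the other 5 below 1, and the ratios of 1.32 and 1.39 became 2.08 and 2.16 without cell 57. Hoxc9 had ratios of 1.54 and 1.82, with highest values of 24.1, 32.2 and 2.01 in Six2-detecting, remaining and bud cells. Hoxb9 was the leading Hox gene of bud cell 53 at 30.2, and it was detected in 3 of 7, 22 of 46 and 7 of 33 cells, with ratios to bud of 0.87 and -0.08. Hoxd9 had ratios to bud of -0.13 and 0.68, the second with a single remaining cell at 155 and at -0.20 with the mean of log2 values.

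Hoxc8, at the step from middle to posterior numbers, had the highest ratio of Six2-detecting over bud cells among all 32 genes. It was detected in 37 of 46 Six2-detecting cells (median 7.09, highest 75.2) and 25 of 33 remaining cells (median 4.61, highest 54.6). Bud cells 20 and 57 had it at 6.79 and 1.23, and the other 5 were below 0.3. The ratios were 2.74 and 2.69, and 3.54 and 3.50 without cell 20. Hoxc8 and Hoxd8, paralogs of the same number, thus stood on opposite sides of the bud.

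The anterior and middle HoxA genes were low or at 0 in most bud cells. Hoxa5, needed for lung and airway formation, was detected in 2 of 7 bud cells, at 4.83 and 1.62, in 31 of 46 Six2-detecting cells (median 2.13, highest 67.9) and in 21 of 33 remaining cells (median 2.02, highest 157). Its ratios to bud were 2.50 and 2.54, the second 1.80 without cells of few genes. Hoxa7 was detected in 1 of 7, 24 of 46 and 13 of 33 cells, with ratios of 2.54 and 1.98. Hoxa3, a gene of thymus and parathyroid formation, was detected in 31 of 46 and 26 of 33 cells, with medians of 2.40 and 5.21. Its single bud cell above 1 was cell 20 at 30.1, and the ratios of 0.35 and 1.01 rest on it: the second was 3.40 without that cell and 0.33 without the bud cells that detect Six2. The deposited span of Hoxa3 covers Hoxa4, Hoxa5 and Hoxa6, so reads of these genes may have been shared.

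Further low-numbered genes came from few cells at high values. Hoxa4 was detected in 9 Six2-detecting and 6 remaining cells and in no bud cell, with highest values of 64.6 and 105 and ratios of 2.63 and 2.77. Hoxa2, of the second branchial arch, was detected in 8 and 10 cells, at up to 62.3 and 101, and Hoxa6 in 9 and 8 cells, at up to 29.8 and 25.8. In HoxB, Hoxb1 was detected in 9 and 2 cells, with ratios to bud of 1.37 and 0.78. Hoxb2 was detected in 27 of 46 Six2-detecting, 7 of 33 remaining and 2 of 7 bud cells, and its ratio of 1.19 became 2.06 without bud cell 53.

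In HoxC, Hoxc6 was detected in 14 of 46 Six2-detecting and 6 of 33 remaining cells, at up to 14.2 and 12.6. Hoxc5 was detected in 6 and 5 cells, at up to 34.2 and 22.5, and had ratios to bud of 1.52 and 1.45. Hoxc4 was detected in 23 and 7 cells and in 1 bud cell, with highest values of 11.5, 11.8 and 5.46 and ratios of 0.86 and 0.11.

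**Figure D4:**
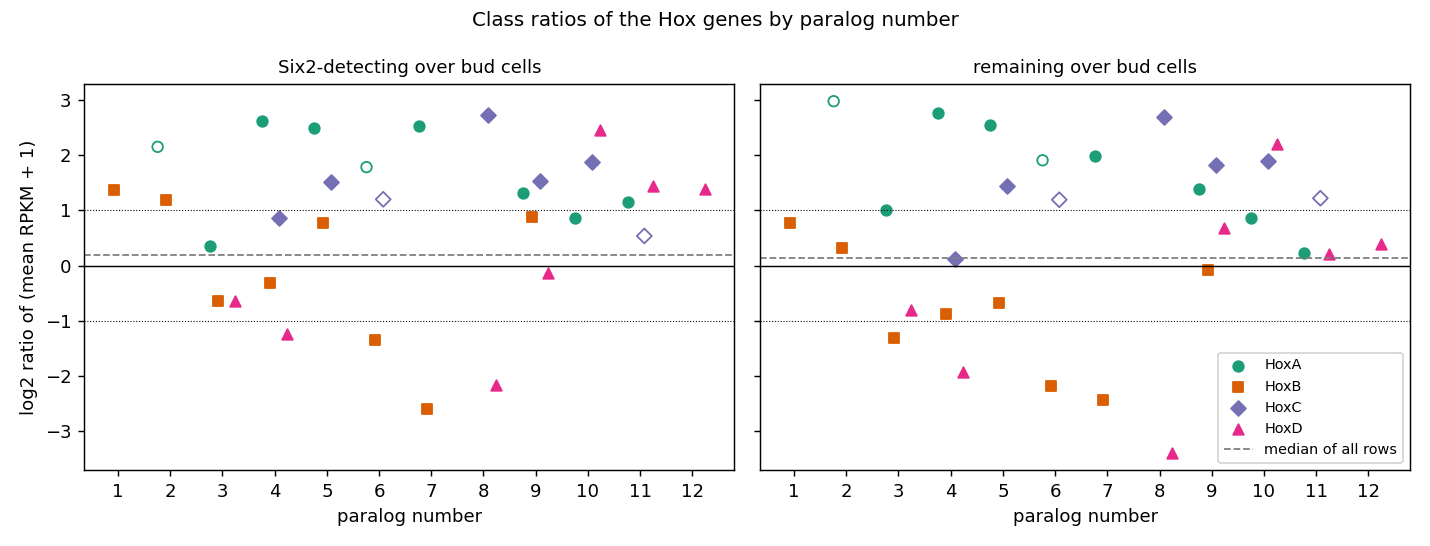
log2 ratio of (class mean RPKM + 1) of 31 Hox genes by paralog number, for Six2-detecting over bud cells (left) and remaining over bud cells (right), with the cluster shown by shape and colour. Open symbols are genes listed at 0 in all bud cells, whose height depends on the pseudocount; dotted lines mark 1 and -1, and the dashed line is the median of all rows (0.19 and 0.14). HoxA and HoxC genes lie above 0 in both panels, as the open symbols must, and Hoxb6, Hoxb7, Hoxd4 and Hoxd8 below -1.

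Six2-detecting and remaining cells differed less from each other. In Six2-detecting over remaining cells 4 of 32 Hox genes were higher, Hoxb5, Hoxd8, Hoxd11 and Hoxd12, where 7.40% of all rows were. None was lower, where 7.65% of all rows were. The median Hox ratio was 0.12, and that of all rows 0.02. Hoxb5 was detected in 34 of 46 Six2-detecting cells (median 4.74, highest 70.7), 12 of 33 remaining cells (median 0, highest 40.5) and 6 of 7 bud cells (median 6.18, highest 12.7). Its ratio was 1.45, with means of 11.4 ± 14.6 and 3.54 ± 8.41. Hoxd8 had a ratio of 1.23, which was 0.29 with Six2-detecting cells taken at an RPKM of 10 or more. Hoxd12, at 1.00, was 2.23 without cells of few genes and 2.17 over remaining cells with Foxd1. In HoxB 7 of 8 genes were above 0, where 51.4% of all rows were. All 8 were above 0 with the mean of log2 values, which turned Hoxb7 from -0.17 to 0.52.

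Levels were also summed over each cluster in each cell. HoxB had a median sum of 95.8 RPKM in bud cells (51.4 to 187), 46.9 in Six2-detecting cells (5.39 to 135) and 16.1 in remaining cells (1.20 to 158). HoxC had medians of 3.75 (0 to 55.1), 59.0 (1.07 to 178) and 60.0 (1.03 to 168). The bud class was thus highest in HoxB and lowest in HoxC, with overlapping ranges. HoxA had medians of 59.6, 112 and 111, and HoxD of 74.2, 53.5 and 49.6. Hidden in the similar HoxD sums was a difference in members: paralogs 9 to 12 made up a median of 15.9% of the HoxD sum in bud cells, 90.8% in Six2-detecting cells and 99.2% in the 31 remaining cells with HoxD RNA.

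Over all clusters, paralogs 9 to 12 gave a median of 38.8% of the summed Hox RPKM in bud cells (0.141 to 61.8%), 62.5% in Six2-detecting cells (30.9 to 83.3%) and 70.5% in remaining cells (33.2 to 89.8%). The summed Hox RPKM itself had medians of 249, 307 and 251. Bud cells detected a median of 12 Hox genes (7 to 17), Six2-detecting cells 16 (11 to 22) and remaining cells 12 (6 to 18). This number went with the genes detected in a cell over the 79 cells outside the bud class, with Spearman's rho of 0.51, and with relative depth rho was -0.18. The part of the number of genes detected in these class medians was not tested.

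The bud cells differed widely in their share of posterior Hox RNA, and RNA of nephron progenitor markers differed with it. Cells 74 and 3 had posterior shares of 0.141% and 10.5% and summed progenitor markers of 25.6 and 4.38 RPKM. Cell 20 had a share of 24.2% with 133 RPKM of progenitor markers and the highest stroma marker sum, 528 RPKM. Cells 47, 18, 57 and 53 had shares of 38.8%, 39.7%, 46.9% and 61.8% with progenitor sums of 686, 431, 241 and 601 RPKM. The cells low in posterior Hox RNA were thus the cells low in progenitor markers, and their stroma marker sums were 3.70 and 15.5 RPKM. Across Six2-detecting cells the progenitor sum ranged from 186 to 2501 RPKM. No doublet caller was run, and the part of RNA from other cells in the bud values was not tested. In cells 3 and 74, the Hox genes above an RPKM of 10 were Hoxb6, Hoxb7 and Hoxd8, with Hoxa10 and Hoxd9 in cell 3 and Hoxd4 in cell 74.

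**Figure D5:**
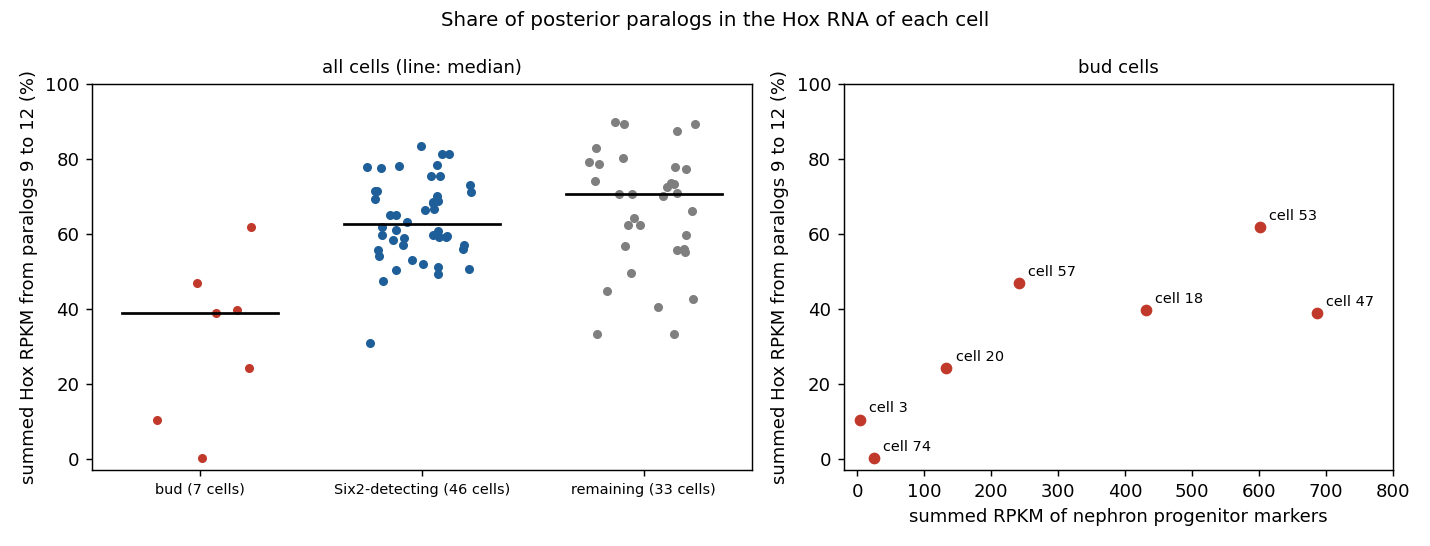
Left, percent of the summed Hox RPKM of each cell that came from paralogs 9 to 12, by class (points are cells, lines are medians of 38.8%, 62.5% and 70.5%). Right, the same percent in the 7 bud cells against their summed RPKM of 13 nephron progenitor markers; cells 3 and 74, with the lowest marker sums, have the lowest shares.

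Within the Six2-detecting class, cells were split further by lineage genes, a choice made after seeing the data. Over cells with Cited1, a gene of uninduced progenitors, against cells without it (29 and 17), 5 Hox genes were higher and 0 lower, against 10.4% and 8.09% of all rows. Among them were Hoxa2 (1.62, detected in 5 of 29 and 3 of 17 cells), Hoxd8 (1.86, 14 and 8 cells), Hoxd10 (1.00, 26 and 16) and Hoxd12 (1.29, 14 and 9). Cells with and without Cited1 thus detected these genes in similar shares. Hoxd8 had means of 20.5 ± 31.9 and 4.94 ± 10.7 in these cells, and Hoxd10 of 44.4 ± 42.6 and 21.7 ± 20.7. Over 20 cells with Wnt4, Lhx1 or Pax8, genes of induced progenitors, against 26 cells with none, Hoxa4 (1.94) and Hoxc6 (1.14) were higher and Hoxa5 (-1.30) lower, against 7.17% and 10.4% of all rows. The median number of Hox genes detected was 16 in each of these subsets.

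Over 31 Six2-detecting cells with Foxd1 against 15 without, 4 Hox genes were higher and 3 lower, against 12.8% and 8.30% of all rows. Higher were Hoxa2 (1.83, detected in 5 of 31 and 3 of 15 cells), Hoxa7 (1.31, 19 and 5 cells), Hoxb1 (1.30, 7 and 2) and Hoxd12 (1.00, 14 and 9). Hoxa2 and Hoxd12 were thus detected in a smaller share of the cells with Foxd1. Their means there, 4.82 ± 13.2 and 12.9 ± 24.4, came from cells at high values. Among the lower were Hoxb9 (-1.51) and Hoxd4 (-1.25), with Hoxb9 at means of 6.92 ± 15.2 and 21.6 ± 34.8.

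The 33 remaining cells were split the same way, into 25 with Foxd1 and 8 without. In cells with Foxd1 over cells without, 11 Hox genes were higher and 5 lower, against 20.4% and 12.9% of all rows. Hoxb6 was detected in all 8 cells without Foxd1, at 2.11 to 20.9 with a median of 8.30, and in 6 of 25 cells with it, at most at 4.42, a ratio of -2.45. Hoxc8 went the other way, detected in 22 of 25 and 3 of 8 cells (1.86), as did Hoxc10 (1.25), with means of 55.0 ± 40.7 and 22.5 ± 19.3. Hoxa5 had a ratio of 2.43. Of the other genes higher in bud cells, Hoxd8 went against Hoxb6 and Hoxb7 went with it. Hoxd8 had means of 7.43 ± 19.6 with Foxd1 and 0.391 ± 0.455 without, and was detected in 6 of 25 and 1 of 8 cells. Hoxb7 had a ratio of -1.24 and was detected in 7 of 25 and 4 of 8 cells. The lowest ratio was that of Hoxd12 (-2.61), which was detected in 2 of 25 and 2 of 8 cells. The 8 cells also differed in lineage genes: Pax8 was detected in 5 of 8 against 3 of 25, Jag1 in 7 of 8 against 11 of 25, Wfdc2 in 7 of 8 against 7 of 25 and Col3a1, a stroma collagen, in 3 of 8 against 23 of 25. Tcf21, a stroma marker, was detected in 8 of 8 against 21 of 25 with medians of 131 and 47.7, and Gata3, a bud marker, in 1 of 8 against 5 of 25. The part of these cells' type in the Hoxb6 values was not tested.

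Pairs of Hox genes varied together weakly across the 79 cells outside the bud class. Spearman's rho had a median of 0.11 over 26 pairs of neighbours in a cluster, 0.13 over 74 other pairs of the same cluster, -0.01 over 28 pairs of the same paralog number and 0.02 over 307 other pairs. The pairs with the highest rho were Hoxb5 with Hoxb7 (0.42, both detected in 28 cells) and Hoxb2 with Hoxb5 (0.41, both in 26 cells). The lowest was Hoxa3 with Hoxb5 (-0.29). Cells share the pool, and each rho also carries their depth and class, so these values are a description.

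Genes that act with Hox proteins were set beside them. The TALE proteins of the Pbx and Meis families bind DNA together with Hox proteins. Of 11 measured TALE genes, 7 were higher and 1 lower in Six2-detecting over bud cells (20.9% and 10.3% of all rows). Their median ratio was 1.34 beside 0.19 over all rows. Besides Pbx and Meis genes, the 11 hold Pknox1, Pknox2, Tgif1 and Tgif2, and Tgif2 (1.36) was among the higher. In remaining over bud cells 7 were higher and 2 lower, Pbx4 (-2.08) and Tgif1 (-1.02), against 22.0% and 12.3% of all rows. Meis1 had means of 30.1 ± 46.9 in bud, 112 ± 82.4 in Six2-detecting and 172 ± 123 in remaining cells (1.85 and 2.47 over bud). Meis3 (3.39) and Pbx3 (2.29) were not detected in any bud cell. Pbx4 (-2.40) was detected in 4 of 7 bud cells and 4 of 46 Six2-detecting cells, and Tgif1, a repressor of the family, had a ratio of -0.66 over the same cells.

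Of 6 measured partners and targets of paralogs 11, without the class-defining Six2, 4 were higher and 1 lower in Six2-detecting over bud cells, against 20.9% and 10.3% of all rows, with a median of 1.53. The higher genes were Gdnf, Itga8, Sall1 (1.68) and Wt1 (1.38). These 4 and Eya1 are also nephron progenitor markers of the check above, so the counts are not separate from class identity. Gdnf had means of 0.907 ± 1.90 in bud, 17.5 ± 27.6 in Six2-detecting and 17.9 ± 29.1 in remaining cells, a ratio of 3.28 over bud cells and -0.03 between the other classes. Itga8, an integrin of the cap mesenchyme, had a ratio of 3.18. Eya1, a coactivator, was detected in 42 of 46 Six2-detecting, 8 of 33 remaining and 4 of 7 bud cells, with ratios of 0.67 over bud and 2.16 over remaining cells. Pax2 was the lower gene (-1.12), and its mean was 3.00 ± 4.42 in bud cells and 0.834 ± 1.78 in Six2-detecting cells, 12 of which detected it.

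Regulators of Hox chromatin, upstream genes and genes around the clusters are given for Six2-detecting over bud cells, where 20.9% of all rows were higher and 10.3% lower. Of 27 polycomb genes, which keep silent Hox genes off, 4 were higher and 1 lower, with a median of 0.19. Higher were Cbx8, Pcgf5, Phf19 (1.18) and Scmh1 (1.26). Cbx8 had the ratio 2.61 and was detected in 8 of 46 and 0 of 7 cells, Pcgf5 was listed at 0 in all bud cells, and Pcgf6 (-0.90) and Pcgf3 (-1.18) had the lowest ratios of those whose mean reached an RPKM of 1 in bud or Six2-detecting cells. Of 11 trithorax and demethylase genes, which keep active Hox genes on, 1 was higher, Ash2l (1.50), and 0 lower, with a median of 0.07, Rbbp5 at 0.90, Ash1l at -0.24 and Men1 at -0.76. Of 6 upstream regulators, with a median of -0.06, Aldh1a2, an enzyme of retinoic acid synthesis, was higher (1.05), Ctcf had 0.37 and Rarb -0.50. Of 14 genes in or beside the clusters, Mir10b was higher (2.57, detected in 4 of 46 cells) and Skap1 lower (-1.30), with a median of 0.01. The Mir10b row lies inside the spans of Hoxd3 and Hoxd4, so its value may hold their reads. Outside the clusters, Calcoco1 had 0.90 and Atf2 -0.34.

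A second table sets cells that its header calls six2only against cells called six2andcited1. Its cells are not the same as the 46 Six2-detecting cells used here, and they include bud cells 47 and 57. The authors' deposited table has 450 rows and holds 0 of the 32 Hox genes. The table of expressed genes has 12360 rows, so at an even share few of 32 genes would be listed. Their absence is not read as a result about Hox genes. The authors' deposited table does list Hoxa11as, with a fold of -3.29, lower in the cells called six2only. Of the Hox partners, the authors' deposited table gives Meis3 a fold of -6.01 and Pbx3 a fold of 3.89. Of the chromatin genes, the authors' deposited table gives Eed 3.24, Pcgf1 3.65, Mll1 -2.38 and Kdm6a -5.01.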

How the data were processed

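Single-cell RNA-seq of 86 cells was analysed from 2 tables. The RPKM values were made and deposited by the authors, in a table with the mm9 span of each gene and, per the file headers, a count of cells over an RPKM of 3. Per the submitters' processing notes TopHat 1.4.1, DESeq and mm9 were used, with no role or order given, and counting and use of strand are not given in the sources used here. Values were used as deposited, and the log2 ratio of (class mean RPKM + 1) was computed. The authors' deposited table of 450 genes holds a signed fold, which was copied as it stands. Detection was an RPKM of at least 1. Intervals are exact Clopper-Pearson 95% intervals. The relative depth of a cell came from the commonest ratio of its RPKM values to those of another cell. It gives no read totals.

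The members and gene lists were chosen with earlier results of these data known. All Hox rows enter the counts, and a few named values are not reported here. Hox genes with a class mean RPKM of at least 10 or a ratio of at least 1 in size were described by class, and from other lists up to the 2 highest and 2 lowest ratios were named among genes whose mean RPKM reached 1, beside Mal2, Six2, Foxd1, Meis1, Pax2, Gdnf and Eya1. The endothelial list had 1 measured gene and the blood list 0. The mural list had 5 (medians of 0, 0.5 and 2 detected in bud, Six2-detecting and remaining cells) and the neural list 4 (0, 1 and 0). Promoters are from RefSeq on GRCm38.p6. Ratios and depths were tested on simulated data. Python 3.11.15, numpy 2.4.6, pandas 2.3.3, scipy 1.17.1 and matplotlib 3.10.9 were used. Alternatives were other pseudocounts, averaging, detection limits, class limits and scalings, and leaving out cells.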

Additional observations from a re-analysis of the deposited data

How the results depend on the processing

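No paired analysis was possible because all cells come from 1 pool and form 1 labelled group. Of 46 Hox ratios of at least 1 in size, none changed sign in 774 values under alternatives. Many of these values could not change sign, so this count does not measure stability. Another pseudocount keeps the sign of a ratio of means. The other Mal2 limit gave the same bud cells, and a limit on mean RPKM only dropped rows. Leaving out bud cells cannot move Six2-detecting over remaining cells. The 46 ratios were also chosen for their size in the same data. Of the 774 values, 116 moved by over 1.5 times. Most of these were under a pseudocount of 5 (28), the mean of log2 values (27) or a pseudocount of 0.1 (23). RPKM rescaled to an equal total in each cell gave 16, all genes low in bud cells. With a pseudocount of 5, Six2-detecting over bud cells had a median Hox ratio of 0.56, with 6 genes higher and 2 lower (6.64% and 4.91% of all rows), remaining over bud cells had 6 higher and 3 lower (8.27% and 5.64%), and Six2-detecting over remaining cells had 0 higher. With a pseudocount of 0.1 the last had 11 higher and 1 lower (12.6% and 12.4%). With the mean of log2 values, 11 Hox genes were higher in Six2-detecting over bud cells (6.85% of all rows), 8 higher and 8 lower in remaining over bud cells with a median of 0.24, and 7 higher in Six2-detecting over remaining cells (4.22%). That comparison had 1 gene lower with the rescaled RPKM, and 7 higher and 1 lower with remaining cells limited to those with Foxd1, an alternative added after seeing the data. The background shares under other averaging and pseudocounts were likewise added after seeing the data. Counting any value above 0 as detected gave 18, 21 and 17 Hox genes per bud, Six2-detecting and remaining cell, and an RPKM of 3 gave 13 per Six2-detecting cell. The cause of these moves was not tested.

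Leaving out each bud cell in turn gave 17 to 19 genes higher, 3 to 4 lower and a median of 1.11 to 1.50 in Six2-detecting over bud cells. In remaining over bud cells it gave 14 to 18 higher, 5 to 6 lower and a median of 0.71 to 1.19, and 11.5 to 12.5 Hox genes detected per bud cell. Bud cells numbered 7, which limits every ratio to them, and genes found in few cells rest on those cells. Of 5 cells of few genes, 1 was Six2-detecting and 4 were remaining. A Mal2 limit of 10 gave the same 7 bud cells.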
